A study of Bos taurus with 6 samples.

Results

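Facilitative glucose transporters are the proteins of the SLC2 (GLUT) family, which let hexoses and related polyols cross a membrane without the sodium gradient that the SLC5 carriers use. In fat, SLC2A1 (GLUT1) carries basal glucose uptake and SLC2A4 (GLUT4) is moved to the surface of mature adipocytes by insulin, while other members sit in intracellular membranes or prefer fructose, urate or myo-inositol. The 9 genes described here, SLC2A1, SLC2A3, SLC2A4, SLC2A5, SLC2A6, SLC2A8, SLC2A10, SLC2A12 and SLC2A13, were taken by symbol from the 23475 genes of the deposited table, which holds 12 SLC2 genes in all. The family was chosen by the FPKM values of SLC2A3 in these same libraries, which had been seen to lie higher in cells given the miRNA. The comparison of the 2 groups is therefore a description for these 9 genes. Counts of them past a threshold support nothing.

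RNA was sequenced from bovine preadipocytes of subcutaneous calf fat, 48 h after transfection with either a *bta-miR-484* agomir, a synthetic, stabilized mimic that adds to the miRNA in the cell, or the agomir negative control (agomir NC). Each group had 3 libraries. All the cells were primary cells grown in high-glucose medium with fetal bovine serum, and which calf gave which sample is not stated in the sources used here, so that p-values measure only the spread between these samples, which may be technical. The values are FPKM, fragments scaled by the length of the transcript and by the mapped fragments of the library, which can be compared between genes as a level per length. They summed to between 365977 and 379361 over all genes of a library, and the depth of the libraries is unknown.

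Most stromal markers were at high levels, and the 10 markers of mature adipocytes were at low levels or at 0. COL3A1, a fibrillar collagen gene, was the most abundant of the preadipocyte and stromal markers, at 7552 ± 119 FPKM in agomir libraries, against 7694 ± 213 FPKM in agomir NC libraries (SD, n = 3 each). PDGFRA, a growth factor receptor of adipocyte precursors, was at 165 ± 1.90 and 167 ± 5.09 FPKM (SD, n = 3 each). ADIPOQ, which encodes the adipocyte hormone adiponectin, was at no more than 0.197 FPKM in any library, LEP, which encodes leptin, at no more than 0.0368 FPKM, and AQP7 was listed at 0 in all 6. CD36, LPL, PPARG, FABP4, PLIN1 and CEBPA averaged 0.5 FPKM or more, and the most abundant, the fatty acid receptor CD36, was at 5.19 ± 0.679 and 5.58 ± 0.801 FPKM (SD, n = 3 each). Among the precursor markers, CD34 was between 0.383 and 0.783 FPKM and DLK1 was listed at 0. The samples are labelled adipocytes, and these 6 of the 10 markers of mature adipocytes were at low levels.

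Among the members, SLC2A3 was by far the most abundant transcript, and the transporter of mature fat was almost absent. Averaged over the 6 libraries, SLC2A3 was at 66.4 FPKM, SLC2A6 at 13.3, SLC2A1 at 12.1, SLC2A13 at 9.77, SLC2A10 at 5.42 and SLC2A8 at 3.64 FPKM. SLC2A4 averaged 0.0682 FPKM and SLC2A12 0.0537 FPKM, and SLC2A5 was listed at 0 in every library. Thus 6 of the 9 members passed the minimum of a mean of 0.5 FPKM over the 6 libraries that was set for the comparison of the groups.

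The order of the levels held in all libraries except between 2 pairs of neighbors. SLC2A3 exceeded SLC2A6, the next in order, 5.01-fold on average. SLC2A6 and SLC2A1 were the neighbors that did not part cleanly, since SLC2A6 was the higher in 5 of 6 libraries and their ranges overlapped with the agomir. SLC2A1 lay above SLC2A13, SLC2A13 above SLC2A10 and SLC2A10 above SLC2A8 in 6 of 6 libraries, with ranges that did not overlap in either group. SLC2A4 lay above SLC2A12 in 3 of 6 libraries, those of the agomir, and below it in the agomir NC libraries, at levels near 0 where these 2 could not be ordered. By its mean level, SLC2A3 ranked 832nd of the 23475 genes.

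**Figure D1:**
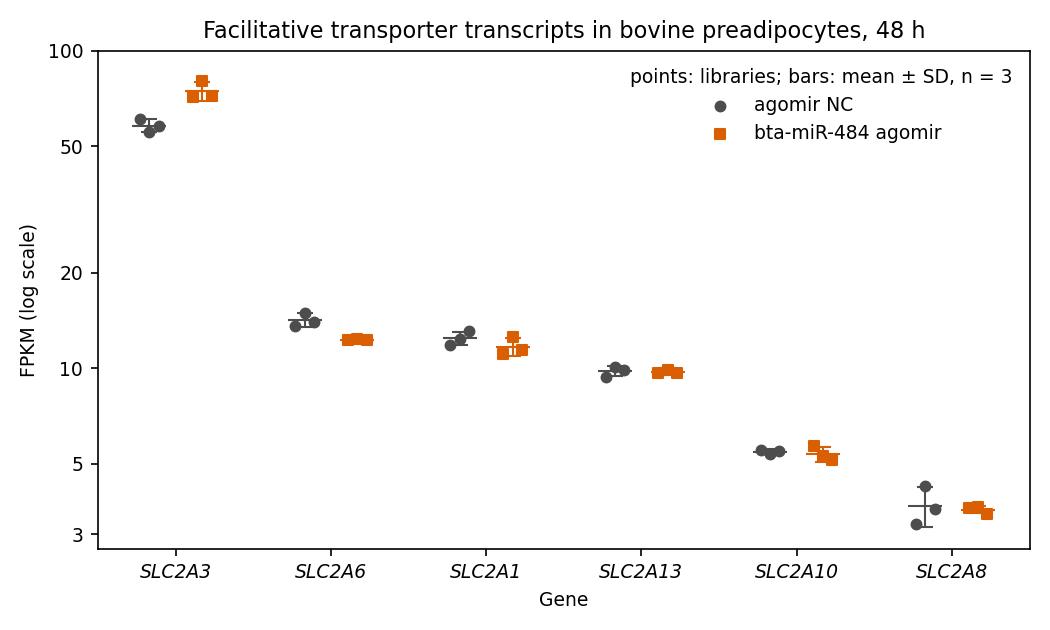
FPKM on a log scale of the 6 members with a mean of at least 0.5 FPKM, in order of their level. Each point is a library, and the horizontal marks and bars are the mean ± SD of 3 libraries of the agomir NC (gray circles) or of the *bta-miR-484* agomir (orange squares). The groups are apart in SLC2A3, at 55.3 to 60.8 against 71.5 to 80.6 FPKM, and in SLC2A6, at 13.6 to 15.0 against 12.3 to 12.4 FPKM.

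Between the groups, SLC2A3 lay higher with the agomir, SLC2A6 lay lower, and the other 4 members above the minimum had overlapping groups. In limma's fit across 12422 genes, 1 member was higher and 1 lower at an unadjusted p under 0.05, where 6.63% of all genes tested were higher and 4.31% lower. No member was under 0.05 after Benjamini-Hochberg adjustment, where 0.00805% of all genes were, which is the 1 gene TRAPPC4, named after its values were seen and not called when most single libraries were left out. Groups that did not overlap were found in 1 member above and 1 below, against 10.9% and 6.36% of all genes tested. The median log2 fold change (agomir minus agomir NC, on the log2(FPKM + 0.5) scale) was -0.027 over the 6 members and 0.013 over all 12422 genes. Since SLC2A3 in this same comparison led to the choice of the family, nothing is read from these counts.

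Class I of the family holds the classical glucose carriers SLC2A1, SLC2A3 and SLC2A4. SLC2A3 (GLUT3) is a high-affinity glucose transporter best known from neurons and white blood cells. It was at 71.5, 80.6 and 72.1 FPKM in agomir libraries, against 60.8, 55.3 and 58.0 FPKM in agomir NC libraries. Every agomir library lay above every agomir NC library, and the highest agomir library stood apart from the other 2 of its group. Group means were 74.7 ± 5.09 and 58.1 ± 2.74 FPKM (SD, n = 3 each), with a ratio of 1.29. This gave a log2 fold change of 0.36 (standard error, SE, 0.058), which stayed between 0.30 and 0.39 when each library was left out in turn, with the lowest value without agomir replicate 2.

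SLC2A1 (GLUT1), the carrier of basal uptake in most cells, was at 11.1, 12.6 and 11.4 FPKM in agomir libraries, against 11.9, 12.3 and 13.1 FPKM in agomir NC libraries. The groups overlapped, and group means stood at 11.7 ± 0.786 and 12.4 ± 0.613 FPKM (SD, n = 3 each). Its log2 fold change was -0.085 (SE 0.069), and with each library left out it ranged from -0.14 to -0.049. The ratio of SLC2A3 to SLC2A1 within a library was 6.43, 6.40 and 6.33 with the agomir and 5.12, 4.49 and 4.43 with the agomir NC. This ratio carries the values of SLC2A3 by which the family was chosen, so that its separation of the groups is no further result.

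SLC2A4 (GLUT4), the insulin-responsive transporter of fat and muscle, was listed at 0.104, 0.0787 and 0.108 FPKM in agomir libraries, against 0.0205, 0.0981 and 0 FPKM in agomir NC libraries. These levels are below the minimum, the groups overlapped, and no fold change was fitted at that minimum. With no minimum, SLC2A4 and SLC2A12 entered the fit, and the counts of members were the same. The difference between the groups in such values was not detectable here.

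The class II member SLC2A5 (GLUT5), a fructose transporter, was listed at 0 in all 6 libraries. SLC2A9, a urate transporter of the same class that was not among the 9 genes, stood at 9.36 ± 0.234 FPKM in agomir libraries, against 9.68 ± 0.161 FPKM in agomir NC libraries (SD, n = 3 each). Its log2 fold change was -0.046 (SE 0.061, limma adjusted p = 0.824), and its level was close to that of SLC2A13. SLC2A2 (GLUT2), a class I gene outside the 9 and the low-affinity carrier of liver and islet cells, was listed at 0 in all libraries. SLC2A11 was at no more than 0.0916 FPKM.

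Class III holds members that are largely kept inside the cell. SLC2A6 (GLUT6), found in lysosomal membranes, was at 12.3, 12.4 and 12.3 FPKM in agomir libraries, against 13.6, 15.0 and 14.0 FPKM in agomir NC libraries. All agomir libraries lay below all agomir NC libraries, and the agomir libraries were close together, with a coefficient of variation of 0.662% against 5.04% in the agomir NC. Group means were 12.3 ± 0.0815 and 14.2 ± 0.716 FPKM (SD, n = 3 each), with a ratio of 0.867. This gave a log2 fold change of -0.20 (SE 0.059), between -0.23 and -0.16 with each library left out.

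SLC2A13, the proton-coupled myo-inositol transporter HMIT, was at 9.65, 9.90 and 9.67 FPKM in agomir libraries, against 9.41, 10.1 and 9.85 FPKM in agomir NC libraries. It was the steadiest member, with the highest library 1.08-fold above the lowest, and its log2 fold change was -0.0072 (SE 0.062). SLC2A10 (GLUT10), whose loss causes arterial tortuosity syndrome in humans, was at 5.70, 5.29 and 5.13 FPKM in agomir libraries, against 5.53, 5.37 and 5.50 FPKM in agomir NC libraries. The agomir libraries spanned the agomir NC libraries, with a log2 fold change of -0.024 (SE 0.076).

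SLC2A8 (GLUT8), an intracellular transporter, was at 3.63, 3.66 and 3.49 FPKM in agomir libraries, against 3.23, 4.26 and 3.60 FPKM in agomir NC libraries. Here the agomir NC libraries spanned the agomir libraries, with a coefficient of variation of 14.1% against 2.54%. The log2 fold change was -0.030 (SE 0.10), and its sign changed without agomir NC replicate 2, where it was 0.065. SLC2A12 (GLUT12), a further insulin-responsive transporter, was listed at 0.0468, 0.0661 and 0.0106 FPKM in agomir libraries, against 0.0838, 0.108 and 0.0074 FPKM in agomir NC libraries. Its span in the RefSeq annotation overlaps that of TBPL1, a gene between 6.78 and 9.27 FPKM, so that such low values cannot be assigned to it with certainty. No other member overlapped another gene in that annotation.

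Sums and shares over the family carry the values of SLC2A3 by which it was chosen, and describe its makeup with no further result. The 9 members together were at 114, 125 and 114 FPKM in agomir libraries, against 105, 103 and 104 FPKM in agomir NC libraries. Without SLC2A3 the sum was 42.5, 44.0 and 42.1 FPKM with the agomir and 43.7, 47.3 and 46.1 FPKM with the agomir NC, and the groups overlapped. SLC2A3 made up 63.5% ± 1.04 of the sum with the agomir and 55.9% ± 2.13 in agomir NC libraries (SD, n = 3 each). The share of SLC2A6 was 10.5% ± 0.459 and 13.7% ± 0.828, and that of SLC2A1 9.95% ± 0.181 and 12.0% ± 0.605 (SD, n = 3 each). Shares add up to a whole, so that a higher share of 1 member goes with lower shares of others.

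SLC2A3 is abundant in white blood cells and neurons, and the levels of their markers were examined beside it. The 9 macrophage and leukocyte markers summed to 8.92, 9.08 and 7.71 FPKM in agomir libraries, against 9.05, 8.85 and 8.22 FPKM in agomir NC libraries. None of the 3 of them that were tested was under an unadjusted p of 0.05, where 6.63% of all genes were higher and 4.31% lower. With so few genes at such shares, nothing is read from this count. The most abundant was CD14, at 6.14 ± 0.290 and 6.40 ± 0.0505 FPKM (SD, n = 3 each). CD68 was at 1.00 ± 0.320 and 0.811 ± 0.230 FPKM (SD, n = 3 each), the pan-leukocyte gene PTPRC was at no more than 0.119 FPKM in any library, and TYROBP was listed at 0. The 7 neuron and Schwann cell markers summed to between 7.49 and 8.95 FPKM, nearly all from S100B and TUBB3, and SOX10 was listed at 0. The part of such cells in the values of SLC2A3 was not tested. Endothelial markers summed to between 3.77 and 4.54 FPKM, mostly VWF, and CLDN5 was listed at 0. Epithelial, skeletal muscle and erythroid markers summed to at most 0.414, 0.545 and 0.0998 FPKM.

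Among the stromal markers, 0 were higher and 2 of 9 tested were lower with the agomir at an unadjusted p under 0.05, where 6.63% of all genes were higher and 4.31% lower. NT5E, which encodes the mesenchymal surface enzyme CD73, was at 73.2 ± 3.73 against 87.2 ± 3.56 FPKM, and DCN, a proteoglycan gene, at 2863 ± 31.3 against 3114 ± 129 FPKM (SD, n = 3 each). Their adjusted p was 0.209 and 0.376 in limma. The sum over all 11 stromal markers ran from 17743 to 18474 FPKM with the agomir and from 17670 to 18832 FPKM with the agomir NC. Most of it came from COL3A1 and COL1A1, at means of 7623 and 5979 FPKM over the 6 libraries, so that it says little of NT5E. Of the 6 mature adipocyte markers tested, PPARG was higher, at 3.86 ± 0.157 against 3.23 ± 0.237 FPKM, and FABP4 lower, at 1.90 ± 0.400 against 2.89 ± 0.679 FPKM (SD, n = 3 each), with adjusted p of 0.407 and 0.363 in limma. These calls of 1 higher and 1 lower stand beside the same shares of all genes, and the log2 fold changes of the other 4, which were not called, were 0.29 for CEBPA, 0.14 for PLIN1, 0.058 for LPL and -0.095 for CD36. The stromal count was 1 with agomir replicate 1 or 3 left out, without the variance trend or after quantile normalization, and 3 with agomir NC replicate 1 left out or after median-ratio scaling. Where it was 3, 595 of 12403 and 688 of 12419 genes were lower, beside 535 of 12422 as reported. Without agomir NC replicate 1, 10 stromal markers were tested. PPARG was not called with agomir replicate 1, agomir replicate 3 or agomir NC replicate 3 left out, nor FABP4 with agomir replicate 3 or agomir NC replicate 1 left out. The part of these markers in the transporter values was not tested, and in bulk RNA fewer cells of a type and less RNA per cell cannot be told apart. NT5E, DCN, PPARG and FABP4 were named after their values were seen.

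No gene of the lists that follow passed limma's adjusted p of 0.05, and the lowest value was 0.122, for TXNIP. Counts in these lists are at an unadjusted p under 0.05, where 6.63% of all genes tested were higher and 4.31% lower, and the median over all genes was 0.013. Groups that did not overlap were found in 10.9% of all genes above and 6.36% below. SNX27, RAB8A, ASPSCR1, SP1, MYC, MEF2D and SLC5A3 were named by their p, so that their separation is part of that choice. HK1, TXNIP and EPAS1 were named both by their p and as abundant genes. Glucose carried into the cell is trapped by hexokinases, and HK1 was the most abundant gene of this step. It was at 79.0, 83.4 and 83.0 FPKM in agomir libraries, against 77.2, 74.6 and 74.3 FPKM in agomir NC libraries, so that the groups were apart by a small step. The log2 fold change of HK1 was 0.12 (SE 0.042, limma adjusted p = 0.378). It was the 1 gene of 6 tested in the list of hexokinases and fructose entry under an unadjusted p of 0.05, and none was lower, beside those 6.63% and 4.31%. The list's median log2 fold change was -0.046, beside 0.013 over all genes. ADPGK, a glucokinase that uses ADP, was at 34.3 ± 1.03 and 35.4 ± 1.90 FPKM (SD, n = 3 each), and HKDC1 was listed at 0. The call of HK1 was lost without agomir replicate 2 or 3 and without the variance trend of the model, where 0 genes of the list were called.

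The control of transporters at the cell surface had 2 of 10 genes tested higher and 0 lower at an unadjusted p under 0.05, beside 6.63% and 4.31% of all genes. The median log2 fold change was 0.074, beside 0.013 over all genes. TXNIP, an arrestin-like protein that promotes the internalization of SLC2A1 and is itself induced by glucose, was at 75.5, 79.9 and 74.1 FPKM in agomir libraries, against 59.9, 58.2 and 65.8 FPKM in agomir NC libraries. The lowest agomir library exceeded the highest agomir NC library. Its log2 fold change was 0.32 (SE 0.055, limma adjusted p = 0.122). SNX27, a sorting nexin that returns SLC2A1 from endosomes to the surface, was at 13.2 ± 0.654 against 10.8 ± 0.625 FPKM (SD, n = 3 each), which gave a log2 fold change of 0.28 (SE 0.067, limma adjusted p = 0.257). STOM, the membrane protein stomatin, was the most abundant gene of the list, with overlapping groups, from 97.1 to 100.3 FPKM in agomir libraries and from 88.3 to 98.0 FPKM in agomir NC libraries. Without agomir NC replicate 3, 4 of the 10 genes were higher, where 736 of all 12415 genes tested were higher and 383 lower.

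Of the 23 genes tested for the storage and docking of SLC2A4 vesicles (CLTCL1 was not matched), 2 were higher and 0 lower at an unadjusted p under 0.05, a count near the 6.63% and 4.31% of all genes. The median log2 fold change was 0.0064, beside 0.013 over all genes. RAB8A, a GTPase of vesicle transport, was at 38.9, 41.9 and 38.1 FPKM in agomir libraries, against 34.2, 29.5 and 31.7 FPKM in agomir NC libraries. Its log2 fold change was 0.31 (SE 0.063, limma adjusted p = 0.202), with groups that did not overlap. Over the 23 genes, the groups did not overlap in 4 that lay above and 2 below, beside 10.9% and 6.36% of all genes. Those above were RAB8A, ASPSCR1, TRIP10 and RALGAPB, and those below were RAB13 and TBC1D1. TRIP10, RALGAPB and TBC1D1 were named with their values known. ASPSCR1 (TUG), a tether that retains SLC2A4 vesicles, was at 28.4 ± 1.13 against 25.4 ± 1.26 FPKM (SD, n = 3 each), which gave a log2 fold change of 0.16 (SE 0.056, limma adjusted p = 0.370). Leaving out agomir replicate 2 or agomir NC replicate 1 brought the count of higher genes to 1, and 1 gene was lower without the latter or after quantile normalization. LRP1, a receptor found in these vesicles, and RAB13, a GTPase, were the most abundant, at 381 ± 10.6 and 110 ± 2.36 FPKM in agomir libraries, against 372 ± 52.5 and 115 ± 2.73 FPKM in agomir NC libraries (SD, n = 3 each). Transcripts of these listed genes were found at these levels in cells where SLC2A4 itself stood at no more than 0.108 FPKM. Whether the cells hold SLC2A4 storage vesicles was not tested.

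Among 18 regulators of transporter transcription, 3 were higher and 1 lower at an unadjusted p under 0.05, beside 6.63% and 4.31% of all genes. For the regulators, the median log2 fold change was 0.044, beside 0.013 over all genes. SP1, a zinc finger activator of many housekeeping promoters, was at 10.1, 9.53 and 10.2 FPKM in agomir libraries, against 7.89, 7.85 and 8.27 FPKM in agomir NC libraries. The groups did not overlap, and its log2 fold change was 0.30 (SE 0.065, limma adjusted p = 0.218). MYC was at 11.8 ± 0.161 against 10.5 ± 0.357 FPKM and MEF2D, of a family known to act on the SLC2A4 promoter, at 13.6 ± 0.372 against 12.3 ± 0.330 FPKM (SD, n = 3 each). EPAS1, the hypoxia-inducible factor HIF-2α, lay lower, at 379, 374 and 384 FPKM against 419, 462 and 416 FPKM. Its log2 fold change was -0.19 (SE 0.047, limma adjusted p = 0.265), while HIF1A was at 168 ± 4.99 and 163 ± 7.88 FPKM (SD, n = 3 each) with overlapping groups. Leaving out agomir replicate 2 or agomir NC replicate 1 brought the count of higher regulators to 1, and leaving out the latter brought that of lower ones to 2.

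SLC2A1 and SLC2A3 are both known targets of hypoxia-inducible factors, and 20 other known targets were read beside them. Of the 19 tested, 0 were higher and 6 were lower at an unadjusted p under 0.05, beside 6.63% and 4.31% of all genes. Over the list, the median log2 fold change was -0.058, beside 0.013 over all genes. ANGPTL4, an inhibitor of lipoprotein lipase, was at 4.76, 4.85 and 4.37 FPKM in agomir libraries, against 5.57, 6.24 and 5.92 FPKM in agomir NC libraries, which gave a log2 fold change of -0.31 (SE 0.081, limma adjusted p = 0.284). VEGFA, the vascular growth factor, was at 147, 139 and 147 FPKM in agomir libraries, against 156, 167 and 157 FPKM in agomir NC libraries. ADM, which encodes adrenomedullin, was at 120 ± 4.55 against 136 ± 7.23 FPKM, and DDIT4, an inhibitor of mTORC1, at 121 ± 3.79 against 141 ± 12.2 FPKM (SD, n = 3 each). These 4 genes were taken by their p, so that their separation is part of that choice. Over the 19 genes, the groups did not overlap in 6 that lay below, these 4 with NDRG1 and P4HA1, and in 1 that lay above, P4HA2, beside 6.36% and 10.9% of all genes. The calls of 6 lower genes were these 4, NDRG1 and BNIP3, whose groups overlapped. NDRG1, P4HA1, P4HA2 and BNIP3 were named with their values known. The glycolytic enzymes ALDOA and ENO1, the most abundant of the list, were at 1091 ± 9.08 and 851 ± 49.8 FPKM in agomir libraries, against 1113 ± 39.2 and 890.1 ± 13.5 FPKM in agomir NC libraries (SD, n = 3 each), with overlapping groups. The count of 6 was 4 with agomir replicate 3 left out or without the variance trend and 5 with agomir NC replicate 3 left out, and 1 gene was higher after quantile normalization.

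Sugar carriers outside the SLC2 family were at low levels. Of 13 genes, 6 were tested, 4 were listed at 0 in all libraries, and the sum was between 20.1 and 21.5 FPKM. SLC50A1, a sugar efflux transporter, was the most abundant at 7.54 ± 0.475 and 7.52 ± 0.612 FPKM, followed by SLC37A4, the glucose-6-phosphate translocase, at 4.77 ± 0.257 and 5.16 ± 0.206 FPKM (SD, n = 3 each). SLC5A3, the sodium-coupled myo-inositol transporter, was the 1 gene of the 6 under an unadjusted p of 0.05, at 3.20, 3.07 and 3.48 FPKM in agomir libraries, against 2.67, 2.59 and 2.51 FPKM in agomir NC libraries. Its log2 fold change was 0.28 (SE 0.093, limma adjusted p = 0.354), and the groups did not overlap. The call was lost without agomir replicate 3. No gene of the list was lower, beside 6.63% of all genes higher and 4.31% lower, and the list's median log2 fold change was 0.013, as over all genes. SLC2A13 carries the same substrate with protons, and its groups overlapped.

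SLC5A3 was likewise the 1 gene of 7 tested that was called in the list of myo-inositol and vitamin C handling, beside 6.63% of all genes higher and 4.31% lower. The list had a median log2 fold change of 0.11, beside 0.013 over all genes. The count was 0 when agomir replicate 3 was left out, and 2 when agomir NC replicate 2 or 3 was. GSTO1, a dehydroascorbate reductase, was at 18.4 ± 1.30 and 17.8 ± 1.94 FPKM, and IMPA1, an inositol monophosphatase, at 13.7 ± 0.828 and 13.9 ± 1.06 FPKM (SD, n = 3 each). The carriers that take lactate and pyruvate across membranes showed no call among 6 genes tested, beside 6.63% of all genes higher and 4.31% lower, and 1 higher after quantile normalization. Their median log2 fold change was 0.0077, beside 0.013 over all genes. BSG, the chaperone of the lactate carriers, was at 496 ± 6.41 and 488 ± 11.6 FPKM, and MPC1, of the mitochondrial pyruvate carrier, at 59.4 ± 3.26 and 59.6 ± 4.93 FPKM (SD, n = 3 each).

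Glycogen is a store for the glucose that enters, and of 11 genes tested 0 were higher and 2 lower at an unadjusted p under 0.05, beside 6.63% and 4.31% of all genes. Their median log2 fold change was -0.071, beside 0.013 over all genes. GYS1, the glycogen synthase of muscle and most other tissues, was at 17.3, 17.3 and 17.4 FPKM in agomir libraries, against 18.3, 20.2 and 19.0 FPKM in agomir NC libraries. PYGL, a glycogen phosphorylase, was at 33.6, 36.2 and 34.6 FPKM against 37.2, 39.0 and 37.7 FPKM. The groups of both genes were apart, and their log2 fold changes were -0.14 (SE 0.056, limma adjusted p = 0.418) and -0.12 (SE 0.048, limma adjusted p = 0.401). Both were taken by their p, so that their separation is part of that choice. Over the 11 genes, the groups did not overlap in 5 that lay below and in 0 above, beside 6.36% and 10.9% of all genes. GYG2, PPP1R3C and PPP1R3D (log2 fold change -0.17) also lay below, were not called, and were named with their values known. UGP2 and GBE1, which make UDP-glucose and the branches of glycogen, were the most abundant, at 78.7 ± 2.02 and 44.2 ± 2.59 FPKM in agomir libraries, against 80.9 ± 3.63 and 45.7 ± 0.294 FPKM in agomir NC libraries (SD, n = 3 each). The count of 2 became 0 when agomir replicate 1, agomir replicate 3 or agomir NC replicate 2 was left out, and 1 when agomir replicate 2, agomir NC replicate 3 or the variance trend was. It was 3 with no filter on low values, after median-ratio scaling or after quantile normalization. Over all genes, 638 of 18467, 688 of 12419 and 629 of 12422 were lower at these settings, beside 535 of 12422 as reported. With no filter, 14 genes of the list were tested.

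**Figure D2:**
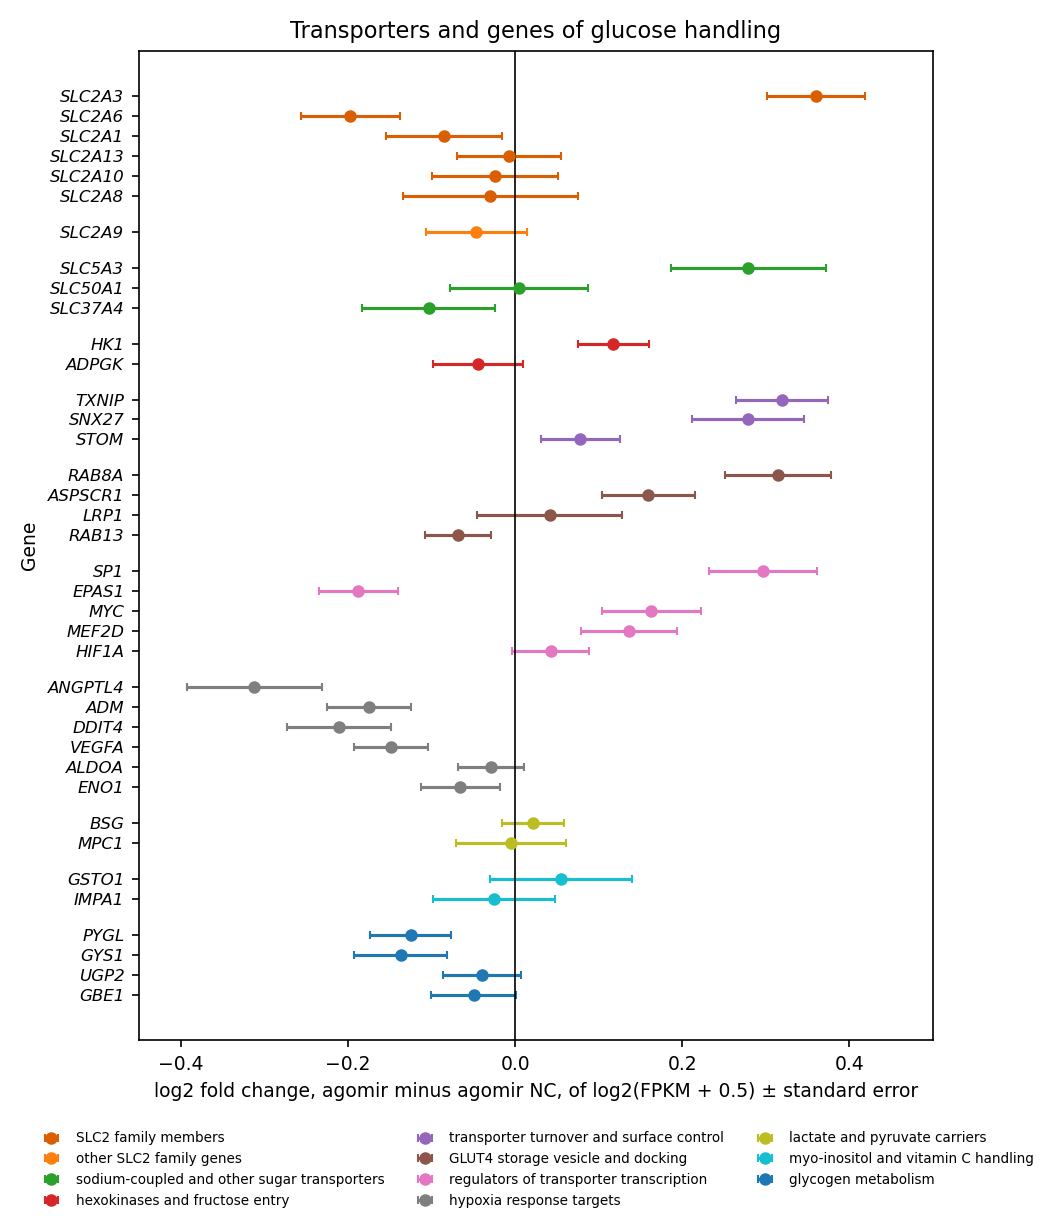
Log2 fold change (agomir minus agomir NC, log2(FPKM + 0.5) scale) of the 6 members averaging 0.5 FPKM or more and of the named genes of 10 lists, each point with its standard error from limma over 3 libraries per group; SLC5A3 stands with the sugar transporters and also belongs to the myo-inositol list. SLC2A3 has the highest value, 0.36, and ANGPTL4 of the hypoxia list the lowest, -0.31.

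Across the 6 libraries, the genes whose log2 levels were most like those of SLC2A3, among 10642 other genes with a symbol and a mean of at least 1 FPKM, were CFL2, POLK, MAP3K20, GFPT2 and NUP98. Their Pearson correlations with SLC2A3 were 0.995 for CFL2, a cofilin, 0.993 for POLK, a DNA polymerase, 0.992 for MAP3K20, a stress kinase, 0.992 for GFPT2 and 0.990 for NUP98, a nucleoporin. These points share the 2 groups and number 6, so that any gene with a like difference between the groups scores high. GFPT2, an isoform of the enzyme that opens the hexosamine pathway from fructose-6-phosphate, was at 91.7, 103 and 95.1 FPKM in agomir libraries, against 82.7, 73.0 and 77.9 FPKM in agomir NC libraries. CFL2 was at 61.2, 66.7 and 61.0 FPKM against 54.8, 52.6 and 54.1 FPKM. Both were chosen for this likeness, so that their pattern is a description.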

How the data were processed

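The authors deposited FPKM values per gene for 3 agomir and 3 agomir NC libraries, 1 column per library. The submitters' processing notes name fastp, HISAT2, StringTie and the build ARS-UCD1.2, without versions. No counts were used, and low values of library pairs did not fall into whole-read steps (at most 10 of 705 low genes in a bin of 0.002 of the log2 ratio), so depth is unknown.

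The 12422 of 23475 genes that averaged 0.5 FPKM or more were put on the log2(FPKM + 0.5) scale and tested in limma 3.58.1 (R 4.3.3), two-sided, with a variance trend, no replicate term and Benjamini-Hochberg adjustment over all genes tested. This scale understates changes of low genes. Alternatives were other pseudocounts, filters, scalings, weights, the replicate number as a block and each library left out. The model was tested on simulated data.

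The members and lists were chosen with earlier results of these data known. From each list, up to 4 genes averaging 1 FPKM or more with an unadjusted p under 0.05, by smallest p, and the 2 most abundant were named. Overlaps between genes were read from RefSeq on ARS-UCD2.0, and no coordinates are given. No sequences of the genes or of the miRNA were used here.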

Additional observations from a re-analysis of the deposited data

How the results depend on the processing

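The median log2 fold change of the members stayed between -0.072 and -0.0066 over all alternatives. The fold from mean FPKM without a pseudocount, added after the data were examined, gave -0.033. The number of genes past limma's adjusted p of 0.05 was 1 as reported (TRAPPC4), 0 when no filter was set, 0 when the variance trend was dropped and 0 under the replicate block, where 1604, 1249 and 1260 genes had an unadjusted p under 0.05, and from 0 to 2 with 1 library left out (0 without agomir replicate 1 or agomir NC replicate 2, where 1220 and 1189 were under it; TRAPPC4 and STRADB without agomir NC replicate 3; a single other gene in each of the rest, LOC112445063, ZNF449 and AKAP12). The cause was not tested. Of the genes at an unadjusted p under 0.05, 824 were higher and 535 lower as reported, and 673 and 688 after median-ratio scaling.

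Same-numbered libraries deviated together at correlations of -0.051, 0.053 and 0.039, so these deviations do not pair the samples, whose origin is not stated; under the block 1 glycogen gene was lower in place of 2, and 2 regulators were higher in place of 3. Of the log2 fold changes recomputed under alternatives for the list genes named by rule, 12 changed sign, all in genes not called. These were SLC50A1 (-0.0094 after median-ratio scaling, -0.017 after quantile normalization, and with 1 library left out from -0.060 to 0.044, with -0.040 without agomir replicate 1), ALDOA (0.042 after quantile normalization), MPC1 (0.0064 with array weights, and from -0.060 to 0.057 with 1 left out, with 0.036 without agomir replicate 1), IMPA1 (from -0.058 to 0.035, with 0.023 without agomir replicate 3), GSTO1 (from -0.034 to 0.12) and LRP1 (from -0.075 to 0.13). Among the members, SLC2A8 (0.065) and SLC2A13 (0.016) changed sign without agomir NC replicate 2, and SLC2A10 (0.0057) without agomir replicate 3. Unknown depth limits SLC2A4, SLC2A5 and SLC2A12.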
